A study of Sus scrofa with 8 samples.

Results

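The collagens, the laminins, fibronectin and the integrins were examined in lung tissue of Tibetan and Duroc pigs. These genes build the extracellular matrix, the scaffold of proteins around cells, and the receptors that hold cells to it. Members were probes whose gene symbol is FN1 or begins with COL and a digit, LAMA, LAMB, LAMC, ITGA or ITGB, and whose spot was well above background on at least 1 array. There were 43 such probes for 30 genes, among 34406 probes that passed the same detection rule and 5473 of these that had a symbol. They held 22 probes of 14 collagens, 16 probes of 13 integrins, 3 probes of FN1 and 1 probe of LAMB1. The rule also takes ITGB1BP2, which encodes melusin, a muscle protein that binds the integrin β1 tail and is not itself an integrin. No probe with a symbol was lost to the detection rule, and 37 of the 43 were above background on all 8 arrays.

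The samples were lung of 6-month-old pigs, with 2 arrays per group, and per the methods each array held RNA of a single female pig. Tibetan pigs stayed at 3500 m (TH) or were moved to 40 m at 1 month of age (TL), and Duroc pigs stayed at 40 m (DL) or were moved to 3500 m at the same age (DH). TH and DL were therefore native groups, and TL and DH were moved groups. Levels are the deposited log2 signals, so that a difference of 1 means a doubling. Because the samples are pieces of whole lung, fewer cells of a type and less RNA per cell cannot be told apart.

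Collagens are triple helices wound from 3 chains. Fibrillar collagens (types I, III, V and XI) form the tensile fibers of airway, vessel and septal walls, type IV forms the sheet of the basement membrane, and type VI forms beaded filaments between both. Laminins join type IV collagen in the basement membrane, and fibronectin is a soluble and fibrillar glycoprotein that bridges cells and collagen. Integrins are pairs of an α and a β chain that span the membrane and bind these proteins or, on blood cells, other cells and clotting proteins.

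The route by which a probe got its symbol decided what could be tested. A RefSeq accession named 18 probes of 15 genes, and these carry no link to the measured values. Another 10 probes of 8 genes were named by the paper's regulator score table alone, whose score does not use a probe's own difference. The other 15 probes of 9 genes were named by tables that the paper ordered or filtered by the breed or the interaction effect. A probe that both kinds of table listed was counted among these 15, so the 10 are not free of selection either. For those 15, breed, interaction and within-slide values are given as a description without a test, and they support nothing. The altitude effect itself was not used to name them. Naming by breed or interaction p-values favors probes with a small spread, which the altitude test shares. Their altitude calls are therefore not free of that selection.

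The breed effect is the mean of TH and TL less the mean of DH and DL, the altitude effect is the mean of TH and DH less the mean of TL and DL, and the interaction is TH less TL, minus DH less DL. All 3 came from 1 limma fit over 8 arrays, with Benjamini-Hochberg adjustment over the 34406 probes and a call at FDR below 0.0001. The scanner files place TH and DL on 1 slide and DH and TL on the other. Breed and altitude are balanced over slides, but the interaction, the slide and being native or moved cannot be told apart. The median raw spot signal was 324 and 333.5 on the TL arrays and 207.5 to 230.0 on the other 6. All arrays had been brought to 1 common distribution before deposit, and the lowest correlation between arrays of a group was 0.98. Against the lung label, 8 of 13 markers of alveolar epithelium, surfactant protein genes among them, had a named probe, and their summed signal in log2 was 19.73 to 20.15 over all arrays.

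**Figure D1:**
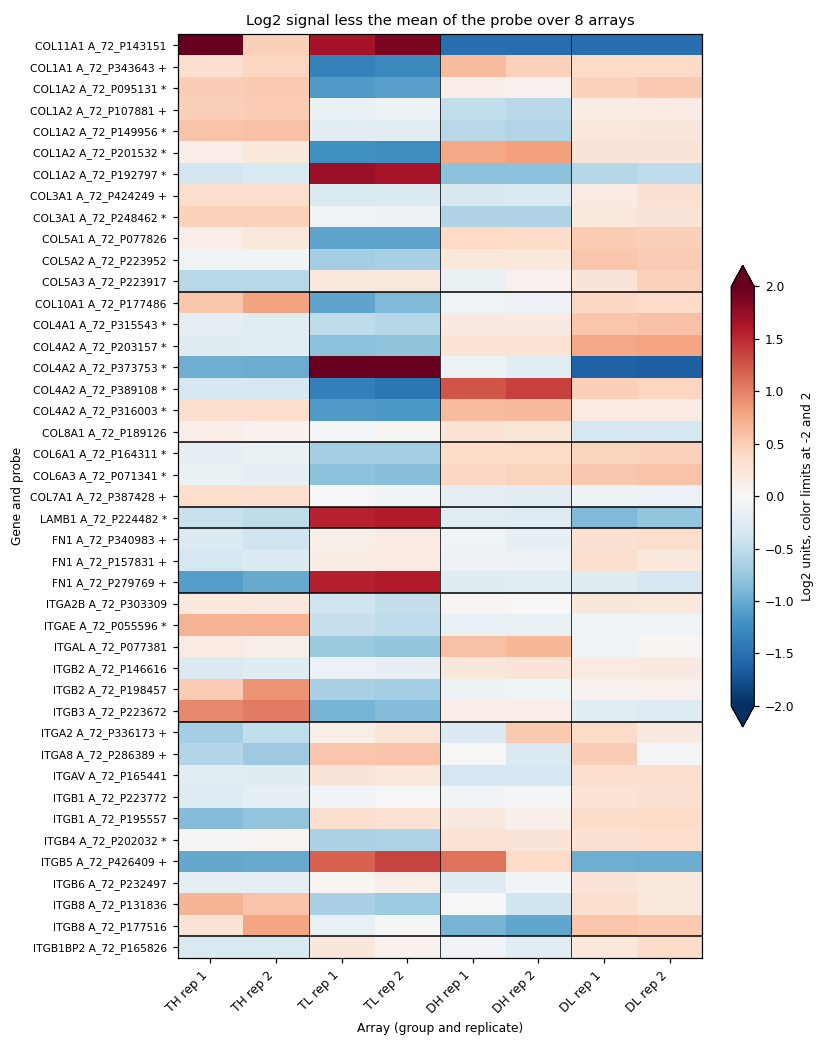
Each row is 1 of the 43 member probes and each column 1 of the 8 arrays; color gives the log2 signal less the mean of the probe over all arrays, red above and blue below. Lines separate families, from fibrillar collagens at the top to integrins and ITGB1BP2 at the bottom, a plus sign marks naming by the score table and an asterisk naming by tables of the effects. The 2 arrays of a group look alike in nearly every row, and TL holds the lowest group mean in 12 of 22 collagen probes, 8 of which were named by tables of the effects.

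Differences between groups were large against the spread within them. The pooled SD of the 2 arrays of a group had a median of 0.041 over the members, and ran from 0.006 to 0.555. Of the 18 members named by RefSeq, 5 passed for breed, which is 27.8%, against 27.4% of all tested probes and 28.6% of all RefSeq-named probes. All 5 were lower in Tibetan pigs, where 19.3% of RefSeq-named probes were called lower and 9.28% higher. For altitude, 5 passed, 3 higher and 2 lower at 3500 m, against 26.3% of all tested probes and 36.0% of those named by RefSeq (26.2% higher and 9.85% lower). For the interaction, 5 passed, 4 above 0 and 1 below, against 28.4% of all tested probes and 27.8% of those named by RefSeq (22.0% above 0 and 5.85% below). The share of RefSeq-named members that passed was therefore near the background for breed and the interaction, and for altitude it was near that of all probes and below that of RefSeq-named probes.

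Of the 10 members named by the score table, 4 passed for breed, 2 for altitude and 4 for the interaction. Of the 15 named by the effect tables, 9 passed for altitude, 6 higher and 3 lower at 3500 m, a count that their naming may have raised. Their 14 probes past the threshold for breed and 14 for the interaction reflect how they were named. The median coefficient over the 28 members not named by effect tables was -0.12 for breed, -0.15 for altitude and 0.18 for the interaction, beside -0.07, 0.01 and 0.21 over all tested probes. At FDR below 0.05, 19 of these 28 members passed for breed, 22 for altitude and 20 for the interaction, 20 for TH less DL and 23 for TL less DH, against 71.6%, 70.8%, 73.7%, 61.5% and 74.0% of all tested probes. Most calls at the stricter threshold needed all 8 arrays. Leaving out 1 array leaves a single array in a group, and it lowered the calls over all tested probes as well, for each effect. None of the 9 breed and 7 altitude calls of these 28 members, and 1 of their 9 interaction calls, held whichever array was left out, although no coefficient changed sign.

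**Figure D2:**
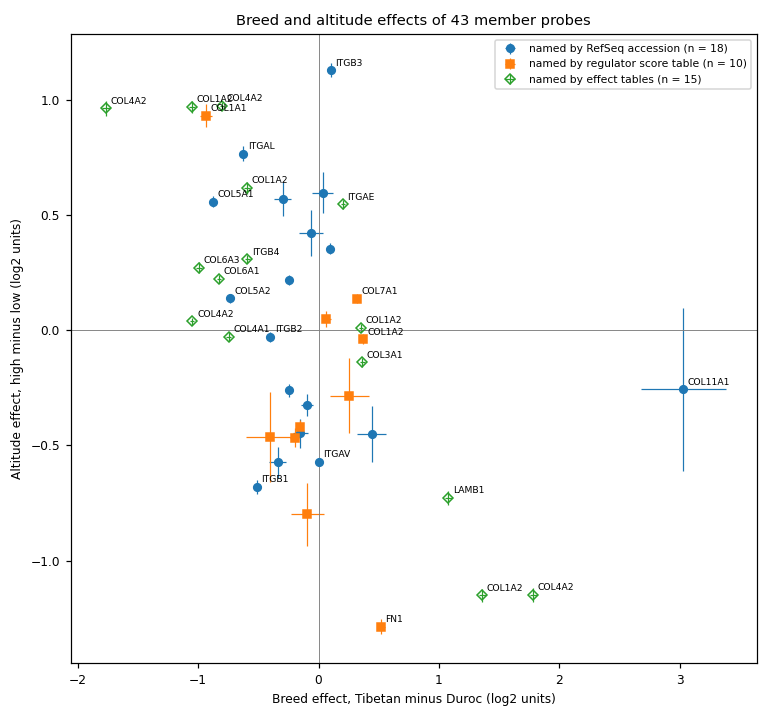
The breed effect (x axis, Tibetan minus Duroc) is plotted against the altitude effect (y axis, high minus low) for the 43 member probes, both in log2 units with bars of 1 standard error; filled circles are named by RefSeq (18), filled squares by the score table (10) and open diamonds by the effect tables (15). Labels mark probes called for either effect or with a breed effect beyond 1. Probes of COL1A2 and COL4A2 lie at both ends of the cloud, and COL11A1 has the widest error bars.

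Type I collagen is the main tensile fiber of lung, made of 2 chains from COL1A1 and 1 from COL1A2. The COL1A1 probe read 7.70 and 7.80 in TH, 6.01 and 6.08 in TL, 7.997 and 7.82 in DH, and 7.76 and 7.75 in DL. TL stood alone below the other 3 groups, which spanned a narrow range. COL1A1 was lower in Tibetan pigs by 0.93 ± 0.05 (SE, adjusted p = 4.3e-05, limma) and higher at high altitude by the same amount (adjusted p = 4.4e-05). Its interaction was 1.55 ± 0.10 (adjusted p = 8.1e-05), with TH 3.26-fold above TL and DH 1.11-fold above DL.

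COL1A2 had 5 probes, which did not move together. Probe A_72_P107881, named by the score table, read 15.24 and 15.27 in TH, 14.63 and 14.66 in TL, 14.27 and 14.22 in DH, and 14.92 and 14.93 in DL. Both native groups were above both moved groups. Its interaction was 1.29 ± 0.04 (adjusted p = 8.8e-06, limma) and its breed effect 0.37 ± 0.02 (adjusted p = 6.0e-05), while the altitude effect was -0.04 (adjusted p = 0.16). A second probe against the same transcript, A_72_P149956, followed it closely (r = 0.99 over 8 arrays, a description over arrays that share slides), with 14.08 and 14.09 in TH, 13.29 and 13.27 in TL, 12.95 and 12.92 in DH, and 13.72 and 13.73 in DL.

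The other 3 COL1A2 probes have targets among clusters of expressed sequence tags (ESTs, short cDNA reads) or GenBank cDNA or EST entries, and differed from this pair. The brightest, A_72_P095131, read 15.45 and 15.48 in TH, 13.83 and 13.87 in TL, 15.08 and 15.04 in DH, and 15.41 and 15.47 in DL, a low TL as for COL1A1. Probe A_72_P201532 also had its lowest values in TL, 8.33 and 8.31, against 9.69 to 10.37 on the other arrays. Probe A_72_P192797 showed the reverse, with 11.18 and 11.11 in TL and 8.63 to 9.15 elsewhere. The altitude effect itself did not name them, but their naming favored probes with a small spread. A_72_P201532 was higher at 3500 m by 0.97 ± 0.03 (adjusted p = 6.3e-06, limma) and A_72_P095131 by 0.62 ± 0.03 (adjusted p = 1.9e-05). A_72_P192797 fell by 1.15 ± 0.03 (adjusted p = 5.6e-06). No single direction for COL1A2 can be given from these probes.

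Type III collagen, from COL3A1, runs beside type I in distensible tissue. Its probe A_72_P424249 read 17.23 and 17.24 in TH, 16.59 and 16.61 in TL, 16.57 and 16.60 in DH, and 17.05 and 17.19 in DL. TH and DL lay above TL and DH with no overlap. The interaction was 1.17 ± 0.07 (adjusted p = 6.9e-05, limma), and neither breed (0.06, adjusted p = 0.17) nor altitude (0.05, adjusted p = 0.29) passed. The other probe of COL3A1, A_72_P248462, against the same transcript, had the same order of groups, 13.92 and 13.93 in TH, 13.68 and 13.72 in DL, 13.37 and 13.36 in TL, and 12.86 and 12.87 in DH.

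Type V collagen sits in the core of type I fibrils and limits their width. COL5A1 read 10.07 and 10.14 in TH, 8.88 and 8.88 in TL, 10.33 and 10.29 in DH, and 10.44 and 10.41 in DL. TL was again lowest, 2.34-fold below TH and 2.92-fold below DL. COL5A1 was lower in Tibetan pigs by 0.88 ± 0.02 (adjusted p = 6.0e-06, limma), was higher at high altitude by 0.56 ± 0.02 (adjusted p = 2.5e-05) and had an interaction of 1.34 ± 0.05 (adjusted p = 1.3e-05).

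COL5A2, whose gene lies next to COL3A1 in the RefSeq annotation of Sscrofa11.1, read 10.63 and 10.66 in TH, 10.02 and 10.07 in TL, 10.92 and 10.92 in DH, and 11.26 and 11.22 in DL. Both Duroc groups were above both Tibetan groups, by 0.74 ± 0.02 (adjusted p = 5.9e-06, limma), and TL was lowest. Its interaction was 0.92 ± 0.04 (adjusted p = 2.4e-05). COL5A3, the third type V chain, was dim, with 5.46 to 6.48 over all arrays and 6 of 8 above background, and passed for no effect.

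Of the 7 fibrillar collagen probes not named by effect tables, 5 had an interaction called above 0 and none below, with a median coefficient of 1.17. Over all tested probes, 14.9% were called above 0 and 13.5% below, with a median of 0.21; of RefSeq-named probes, 22.0% were called above 0. The 5 were COL1A1, COL1A2 (A_72_P107881), COL3A1 (A_72_P424249), COL5A1 and COL5A2, and only COL5A1 and COL5A2 were named by RefSeq. As a description, COL1A2 probe A_72_P192797 had an interaction of -1.75, while the other COL1A2 probes were above 0. For COL1A2 and COL3A1 the native groups TH and DL were the 2 highest, whereas for COL1A1 and COL5A1 TH, DH and DL lay close together and TL was low. In all 5 the interaction, the slide and the move cannot be told apart.

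**Figure D3:**
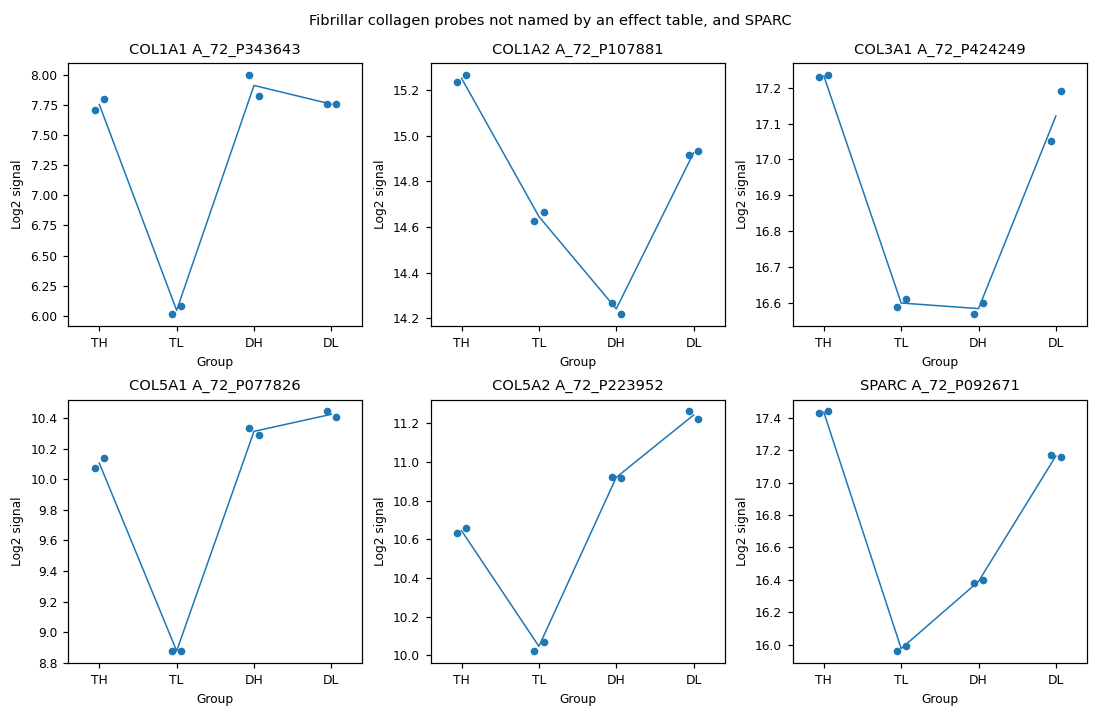
Each panel shows the log2 signal (y axis) of 1 probe on the 8 arrays by group (x axis); points are arrays and lines join the means of the 2 arrays of each group. The 5 fibrillar collagens are those with an interaction called above 0, and SPARC is a collagen-binding protein. COL1A1 and COL5A1 have 1 low group, TL, whereas COL1A2, COL3A1 and SPARC have TL and DH below TH and DL.

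Within a slide, breed and altitude change together but the slide does not. TH less DL was called in 4 of 18 RefSeq-named members, 1 higher and 3 lower, against 14.1% of all tested probes and 21.8% of those named by RefSeq (12.8% higher and 8.92% lower). These were ITGB3 (1.23 ± 0.04), ITGB1 probe A_72_P195557 (-1.19 ± 0.04), COL5A2 (-0.60 ± 0.03) and ITGAV (-0.57 ± 0.03). TL less DH was called in 6 of these 18, 1 higher and 5 lower, against 33.9% of all tested probes and 38.7% of those named by RefSeq (9.97% higher and 28.7% lower). COL5A1 (-1.43 ± 0.04) had the largest of the 6, followed by ITGAL (-1.39 ± 0.05), ITGB3 (-1.03 ± 0.04), COL5A2 (-0.87 ± 0.03), ITGAV (0.58 ± 0.03) and ITGA2B (-0.46 ± 0.03). COL1A1, named by the score table, differed by -1.86 ± 0.07 between TL and DH (adjusted p = 1.0e-05, limma) and by 0.00 between TH and DL (adjusted p = 0.98).

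COL11A1 encodes a minor fibrillar chain best known from cartilage. Its probe read 6.49 and 4.94 in TH, 6.12 and 6.34 in TL, 2.95 and 2.94 in DH, and 2.94 and 2.95 in DL. It was above background on 1 TH array and both TL arrays, and on no Duroc array, where only an upper bound holds. The TL mean was at least 1.52-fold above DH and at least 1.46-fold above DL, taking as floor the lowest signal well above background on each Duroc array. The breed effect, 3.03 ± 0.35, was not called at the threshold (adjusted p = 8.6e-04, limma).

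Cartilage marker genes were uneven beside COL11A1. Of 12 such genes, 4 had a named probe, and their summed signal, which 1 ACAN probe and MATN1 dominate, in log2 was 11.95 to 12.02 in TH, 13.09 to 13.15 in TL, 8.95 to 8.96 in DH and 10.59 to 10.60 in DL. ACAN, the aggrecan core protein, read 11.03 and 11.12 in TH, 12.11 and 12.20 in TL, 8.56 and 8.51 in DH, and 9.94 and 9.86 in DL at probe A_72_P014311. Its breed effect was 2.40 (adjusted p = 2.0e-06, limma). It was the 1 of 5 cartilage probes not named by effect tables that was called for breed, and the median of these 5 was -0.16. Another ACAN probe, A_72_P193007, was lowest in TL. A further ACAN probe, A_72_P305689, above background on 2 of 8 arrays, read 4.25 and 4.80 in TH, 5.07 and 4.82 in TL and 2.97 to 2.99 in Duroc pigs. Its breed effect of 1.76 was not called (adjusted p = 1.8e-04, limma). CILP, a protein of the cartilage matrix, was above background on 4 of 8 arrays and lowest in TH, at 3.96 and 4.59. The breed effect of CILP, -0.91, was not called (adjusted p = 0.017, limma). BPIFA1, a secreted protein of airway lining and the 1 of 14 airway markers with a named probe, was also higher in Tibetan pigs, at 14.26 to 15.70 against 8.71 to 10.53 in Duroc pigs. The part of cartilage or airway tissue in the COL11A1 values was not tested.

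**Figure D4:**
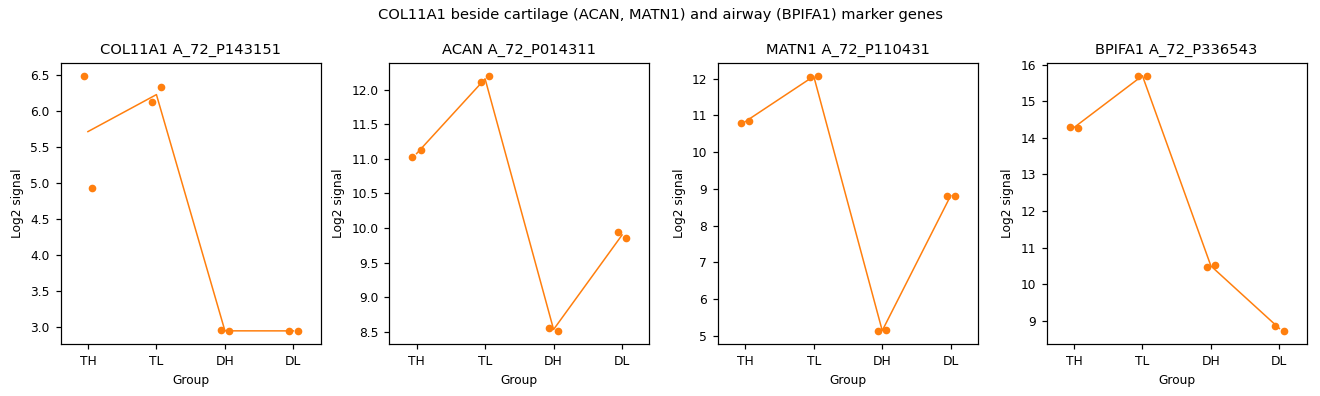
Log2 signal (y axis) of COL11A1, of the cartilage genes ACAN and MATN1 and of the airway gene BPIFA1 by group (x axis); points are arrays and lines join the means of 2 arrays. All 4 probes had their highest mean in TL and their lowest in a Duroc group. COL11A1 was not above background in either Duroc group, and MATN1 was named by a table of the effects.

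The basement membrane chains COL4A1 and COL4A2, which are made from neighboring genes and wound into 1 trimer, were named by effect tables. COL4A1 read 13.63 and 13.62 in TH, 13.32 and 13.27 in TL, 14.01 and 14.01 in DH, and 14.38 and 14.42 in DL. The brightest COL4A2 probe, A_72_P203157, had the same order of groups, with 15.59 and 15.62 in TH, 15.02 and 15.03 in TL, 16.12 and 16.11 in DH, and 16.61 and 16.62 in DL. In both, Duroc values lay above Tibetan values without overlap, and the differences of -0.75 and -1.05 are given as a description. Neither passed for altitude (-0.03, adjusted p = 0.27, and 0.04, adjusted p = 0.096, limma).

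The other 3 COL4A2 probes have EST clusters as targets. Probe A_72_P389108 read 10.09 and 10.09 in TH, 9.07 and 8.99 in TL, 11.71 and 11.81 in DH, and 10.91 and 10.87 in DL. Probe A_72_P316003 was also lowest in TL (7.80 and 7.80) and spanned 9.10 to 9.58 elsewhere. Probe A_72_P373753 went the other way, with 14.25 and 14.30 in TL, 11.40 and 11.29 in DH, 10.52 and 10.51 in TH, and 9.88 and 9.88 in DL. Its TL mean was 13.6-fold above TH and 21.1-fold above DL. For altitude, 2 of the 3 were higher at 3500 m, by 0.96 ± 0.03 and 0.97 ± 0.02 (adjusted p = 1.2e-05 and 2.8e-06, limma), and A_72_P373753 fell by 1.15 ± 0.03 (adjusted p = 6.1e-06).

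COL8A1, a short-chain collagen of vessel walls and other basement membranes, read 12.25 and 12.19 in TH, 12.10 and 12.15 in TL, 12.40 and 12.37 in DH, and 11.78 and 11.77 in DL. DL was lowest, and the altitude effect of 0.35 ± 0.02 just missed the threshold (adjusted p = 1.1e-04, limma). COL10A1, the network collagen of growth-plate cartilage, read 6.10 and 6.37 in TH, 4.51 and 4.69 in TL, 5.48 and 5.46 in DH, and 5.97 and 5.96 in DL. It was above background on both TH arrays, 1 TL array, 1 DL array and no DH array, and its interaction of 2.13 ± 0.15 was not called (adjusted p = 1.1e-04).

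COL6A1 and COL6A3, chains of the beaded filaments, were named by effect tables. COL6A1 read 10.17 and 10.20 in TH, 9.67 and 9.65 in TL, 10.704 and 10.72 in DH, and 10.78 and 10.80 in DL. COL6A3 read 9.53 and 9.47 in TH, 8.85 and 8.82 in TL, 10.08 and 10.12 in DH, and 10.21 and 10.24 in DL. Both had the order DL, DH, TH and TL, with no overlap between breeds, and neither passed for altitude (0.22, adjusted p = 1.9e-04, and 0.27, adjusted p = 2.5e-04, limma).

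COL7A1, the chain of the anchoring fibrils under stratified epithelia, was the 1 collagen probe beside COL1A2 A_72_P107881 that was called higher in Tibetan pigs and not named by effect tables. It read 11.40 and 11.38 in TH, 11.05 and 11.00 in TL, 10.85 and 10.83 in DH, and 10.95 and 10.92 in DL. TH was clearly above the rest. The breed effect was 0.32 ± 0.02 (adjusted p = 8.8e-05, limma), a 1.24-fold difference.

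Fibronectin had 3 probes, all named by the score table. The brightest, A_72_P340983, read 16.65 and 16.52 in TH, 17.04 and 17.10 in TL, 16.84 and 16.76 in DH, and 17.23 and 17.28 in DL. Probe A_72_P157831 had 16.23 and 16.30 in TH, 16.73 and 16.74 in TL, 16.48 and 16.47 in DH, and 16.90 and 16.79 in DL. In both probes the low-altitude groups lay above the high-altitude groups without overlap, by 0.47 ± 0.04 and 0.42 ± 0.03, short of the threshold (adjusted p = 2.6e-04 and 1.6e-04, limma).

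The dim FN1 probe, A_72_P279769, has a GenBank cDNA or EST target and read 7.89 and 7.97 in TH, 10.54 and 10.57 in TL, 8.73 and 8.77 in DH, and 8.74 and 8.65 in DL. TL stood 6.18-fold above TH and 3.63-fold above DL, while DH and DL differed by less than 0.06. It passed for altitude (-1.29 ± 0.03, adjusted p = 5.9e-06, limma), breed (0.52 ± 0.03, adjusted p = 8.7e-05) and the interaction (-2.68 ± 0.07, adjusted p = 3.8e-06). Its interaction was the 1 call among members not named by effect tables that held whichever array was left out, from -2.73 to -2.64. Its altitude difference lay in the Tibetan pigs, and its breed effect had the opposite sign to those of the other 2 FN1 probes, which were not called.

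LAMB1, the laminin β1 chain, was the 1 laminin with a named probe, of 12 laminin genes. The probe, with a GenBank cDNA or EST target and named by effect tables, read 7.85 and 7.79 in TH, 9.84 and 9.88 in TL, 8.07 and 8.04 in DH, and 7.42 and 7.52 in DL. TL was 4.11-fold above TH, against a DH 1.499-fold above DL. Its altitude effect was -0.73 ± 0.03 (adjusted p = 2.2e-05, limma).

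The group that stood apart in a probe was taken as the one whose mean lay farthest from the mean of the 4 groups. Among the 28 members not named by effect tables it was TH in 12, TL in 10, and DH and DL in 3 each. TH stood apart on the high side in 4 and on the low side in 8 of the 28, 42.9% in all. Over all tested probes TH was apart in 17.3%, 9.8% high and 7.52% low. Among those with a RefSeq target TH was apart in 23.2%, 14.7% high and 8.48% low. The share with TH apart was thus above both backgrounds, mostly on the low side, and this excess was not tested. It was smaller in the 20 members with a RefSeq target, whatever their naming, where TH was apart in 6, or 30.0%. Some genes count with several probes. FN1 counts with A_72_P340983 and A_72_P157831, both low, and ITGB2 with a high probe (A_72_P198457) and a low one (A_72_P146616). COL5A3 and ITGA2, also low in TH, were above background on only 1 TH array. TL stood apart on the high side in 3 and on the low side in 7 of the 28, 35.7% in all. Of all tested probes TL was apart in 52.6%, 22.9% high and 29.7% low. Of those with a RefSeq target it was apart in 46.4%, 9.62% high and 36.8% low. The 3 high ones were COL11A1, FN1 A_72_P279769 and ITGB5. COL11A1 was not above background in DH and DL, nor ITGB5 in any group but TL, and no bound places ITGB5 in TL above DH or DL. A high TL also went with the kind of target. Of all tested probes with EST cluster or GenBank cDNA or EST targets, 27.1% had TL apart on the high side, against 12.5% of those with other targets. Of all 43 members these were 5 of 12 and 1 of 31. The 5 were FN1 A_72_P279769, ITGB5, LAMB1, COL1A2 A_72_P192797 and COL4A2 A_72_P373753, the last 3 named by effect tables. Of the 15 members named by effect tables, 11 had TL apart, a count that supports nothing because their naming used the breed or interaction effect. The raw signal of the TL arrays was the highest of all, and its part was not tested.

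**Figure D5:**
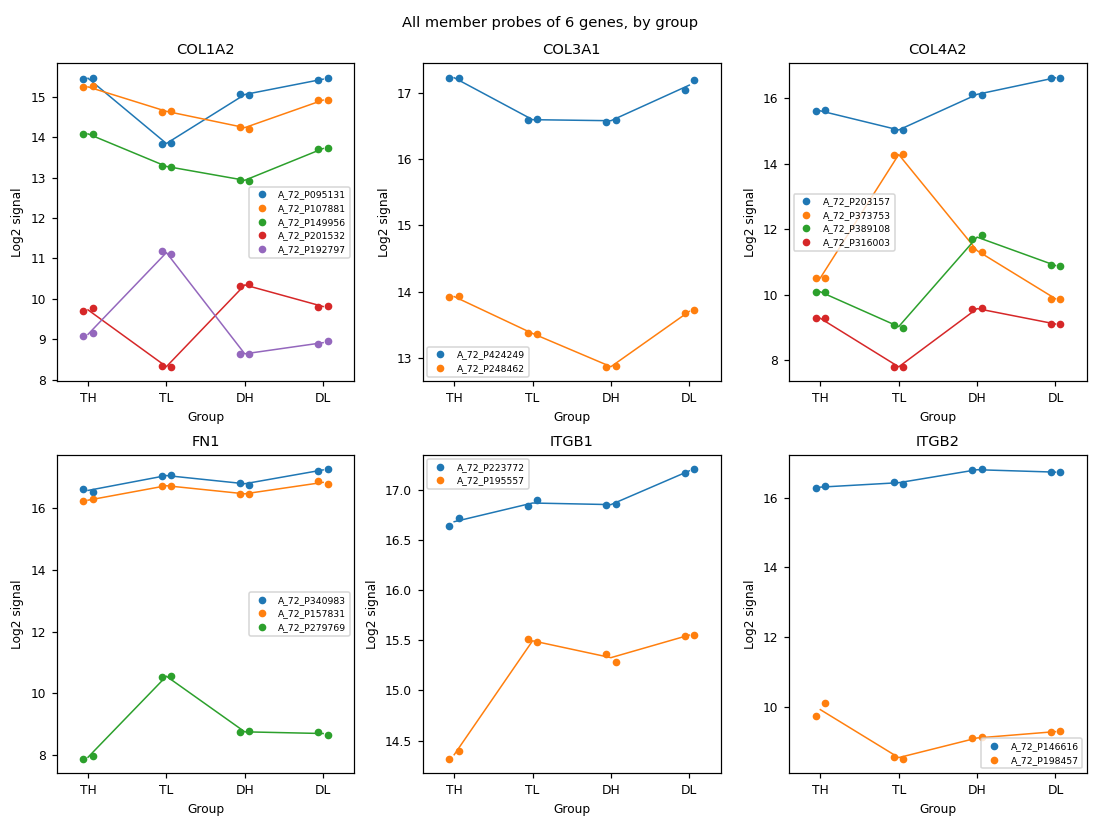
Log2 signal (y axis) of every member probe of COL1A2, COL3A1, COL4A2, FN1, ITGB1 and ITGB2 by group (x axis); points are arrays, lines join the means of 2 arrays and colors mark probes. A_72_P192797 of COL1A2 peaks in TL, where 2 of the other 4 COL1A2 probes are lowest, A_72_P373753 of COL4A2 peaks in TL, where the other 3 COL4A2 probes are lowest, and A_72_P279769 of FN1 peaks in TL with a steeper change than the other 2 FN1 probes.

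Of the 7 member genes with over 1 probe, 2 had probes called in opposite directions for altitude, COL1A2 and COL4A2. These called probes were all named by effect tables. Their breed and interaction values had opposite signs between probes as well, as a description. The 10 pairs of COL1A2 probes correlated at r from -0.98 to 0.99 over 8 arrays, and the brightest COL4A2 probe correlated with the other 3 at r of -0.84, 0.82 and 0.72. Pairs of probes against the same transcript varied, with r of 0.99 for COL1A2, 0.90 for COL3A1, 0.75 for ITGB1, 0.57 for ITGB8 and -0.24 for ITGB2. These correlations describe 8 arrays that fall into 4 groups.

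Integrin β1, which pairs with most α chains that bind collagen, laminin and fibronectin, had 2 probes named by RefSeq. The brightest, A_72_P223772, read 16.64 and 16.72 in TH, 16.83 and 16.90 in TL, 16.84 and 16.86 in DH, and 17.17 and 17.20 in DL. It passed for no effect, at -0.25 ± 0.03 for breed (adjusted p = 9.0e-04, limma) and -0.26 ± 0.03 for altitude (adjusted p = 7.2e-04). Probe A_72_P195557 read 14.32 and 14.40 in TH, 15.51 and 15.48 in TL, 15.37 and 15.28 in DH, and 15.55 and 15.56 in DL. TH alone was low there, and all 3 effects passed, at -0.51 ± 0.03 for breed (adjusted p = 6.0e-05), -0.68 ± 0.03 for altitude (adjusted p = 2.4e-05) and -0.91 ± 0.06 for the interaction (adjusted p = 9.0e-05). Both probes had TH lowest and DL highest.

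ITGAV, the αv chain of receptors for fibronectin and vitronectin, read 13.98 and 13.95 in TH, 14.45 and 14.40 in TL, 13.85 and 13.85 in DH, and 14.53 and 14.53 in DL. The altitude groups did not overlap in either breed. ITGAV fell by 0.57 ± 0.02 at high altitude (adjusted p = 1.0e-05, limma), and the breed effect was 0.00 ± 0.02 (adjusted p = 0.88). The signal was 1.38-fold lower in TH than in TL and 1.60-fold lower in DH than in DL.

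Among β chains that pair with αv, ITGB3, which also pairs with ITGA2B on platelets, read 11.76 and 11.84 in TH, 9.87 and 9.94 in TL, 10.93 and 10.93 in DH, and 10.59 and 10.55 in DL. TH was highest and TL lowest, 3.72-fold apart, and DH was 1.28-fold above DL. ITGB3 was higher at high altitude by 1.13 ± 0.03 (adjusted p = 6.6e-06, limma), the largest altitude effect among RefSeq-named members, with an interaction of 1.54 ± 0.06 (adjusted p = 1.6e-05). ITGB6, an epithelial β chain, read between 6.38 and 6.87 and passed for no effect. ITGB5 was above background in TL alone, at 5.17 and 5.34.

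ITGB8, a β chain that binds latent TGF-β with αv, had 2 probes named by RefSeq. Probe A_72_P131836 read 10.67 and 10.56 in TH, 9.35 and 9.28 in TL, 9.997 and 9.60 in DH, and 10.32 and 10.20 in DL. Probe A_72_P177516 read 6.34 and 6.85 in TH, 5.92 and 6.04 in TL, 5.14 and 5.04 in DH, and 6.62 and 6.59 in DL. It was not above background in DH, so that TH was at least 1.96-fold and DL at least 1.97-fold above DH. Neither passed for any effect, with interactions of 1.77 ± 0.20 (adjusted p = 7.0e-04, limma) and 2.13 ± 0.24 (adjusted p = 7.4e-04).

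ITGA2B, the αIIb chain of the platelet fibrinogen receptor, read 11.57 and 11.57 in TH, 10.98 and 10.91 in TL, 11.41 and 11.39 in DH, and 11.61 and 11.59 in DL. TL alone was low. Its interaction was 0.83 ± 0.05 (adjusted p = 4.9e-05, limma), and breed (-0.24) and altitude (0.22) were not called. PPBP, the 1 of 7 platelet markers with a named probe, had another pattern, lowest in TH at 10.16 to 10.18, whereas TL, DH and DL spanned 11.92 to 12.62 at its brightest probe. The part of platelets in the ITGA2B and ITGB3 values was not tested.

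ITGAL and ITGB2 form LFA-1, the receptor by which lymphocytes and other leukocytes hold on to endothelium. ITGAL read 12.22 and 12.17 in TH, 11.31 and 11.28 in TL, 12.65 and 12.73 in DH, and 12.01 and 12.11 in DL. It was higher at high altitude by 0.77 ± 0.03 (adjusted p = 2.3e-05, limma) and lower in Tibetan pigs by 0.63 ± 0.03 (adjusted p = 4.3e-05). In each breed the 2 high-altitude arrays were above the 2 low-altitude arrays, 1.87-fold in Tibetan and 1.55-fold in Duroc pigs.

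The brightest ITGB2 probe, A_72_P146616, read 16.28 and 16.32 in TH, 16.45 and 16.40 in TL, 16.78 and 16.82 in DH, and 16.72 and 16.74 in DL. It was lower in Tibetan pigs by 0.40 ± 0.02 (adjusted p = 5.4e-05, limma), with an altitude effect of -0.03 (adjusted p = 0.31). The dim probe against the same transcript, A_72_P198457, had 9.72 and 10.11 in TH, 8.56 and 8.51 in TL, 9.09 and 9.12 in DH, and 9.27 and 9.30 in DL, and passed for no effect.

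ITGAE, the αE chain of lymphocytes that settle in epithelium, was named by effect tables and read 13.87 and 13.89 in TH, 12.73 and 12.68 in TL, 13.05 and 13.05 in DH, and 13.14 and 13.13 in DL. Its altitude effect was 0.55 ± 0.02 (adjusted p = 1.0e-05, limma), with TH 2.26-fold above TL and DH 1.06-fold below DL. Of 19 leukocyte marker probes not named by effect tables, for 12 of 20 marker genes, 11 were called higher and 1, for the antibacterial enzyme LYZ, named here after its value was seen, lower at high altitude, against 14.0% higher and 12.2% lower of all tested probes and 26.2% and 9.85% of those named by RefSeq. Among the 11 were the T cell receptor subunit CD3E (1.34, adjusted p = 5.9e-06) and the T cell adhesion protein CD2 (1.22, adjusted p = 2.5e-06). The other 7 probes were not called, among them those of the macrophage receptor CD163 (0.07, -0.02 and -0.05). Another T cell receptor subunit, CD3G, differed by only 0.14. The summed signal of the leukocyte markers in log2 was 17.77 to 17.78 in TH, 17.83 to 17.87 in TL, 18.15 in DH and 18.42 to 18.43 in DL. This sum is linear, so that the brightest genes set it and lymphocyte genes weigh little. CD163 read 16.76 to 17.19 over all arrays, against 10.58 to 12.68 for CD3E and 9.51 to 10.96 for CD2. The part of leukocyte number in the ITGAL, ITGB2 and ITGAE values was not tested.

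ITGB4, the β4 chain that binds laminin in hemidesmosomes, was named by effect tables and read 13.77 and 13.78 in TH, 13.11 and 13.12 in TL, 14.03 and 13.99 in DH, and 14.05 and 14.07 in DL. Its altitude effect of 0.31 ± 0.02 passed (adjusted p = 7.1e-05, limma); TH was 1.58-fold above TL, and DH was 1.03-fold below DL. ITGA2, a collagen-binding α chain, read 5.29 to 6.51 and was above background on 6 arrays. ITGA8, an α chain of fibroblast-like and smooth muscle cells, read 7.46 and 7.32 in TH, 8.61 and 8.63 in TL, 8.04 and 7.79 in DH, and 8.55 and 8.02 in DL. Neither passed for any effect, nor did ITGB1BP2, with 6.32 to 6.99 over all arrays.

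Other genes of matrix and adhesion were counted from 6 lists with 119 genes. Of 45 probes of 23 of these genes not named by effect tables, 8 were called higher and 6 lower in Tibetan pigs, 6 higher and 13 lower at high altitude, and 9 above and 2 below 0 for the interaction. Over all tested probes, 12.8% were higher and 14.6% lower for breed, 14.0% higher and 12.2% lower for altitude, and 14.9% above and 13.5% below 0 for the interaction. Of RefSeq-named probes, 9.28% were higher and 19.3% lower for breed, and 26.2% higher and 9.85% lower for altitude. For the interaction, 22.0% of these were above and 5.85% below 0, near the shares of the 45 probes. For SPARC, a matricellular protein that binds collagen, 3 of 4 probes had an interaction called above 0. Its brightest read 17.43 and 17.44 in TH, 15.96 and 15.99 in TL, 16.38 and 16.40 in DH, and 17.17 and 17.16 in DL. That interaction was 2.23 (adjusted p = 1.3e-06, limma). FBN1, the microfibril protein fibrillin 1, had the same order of native above moved groups, with 12.03 in both TH arrays, 11.52 and 11.47 in TL, 11.56 and 11.58 in DH, and 12.29 and 12.30 in DL (interaction 1.26, adjusted p = 7.1e-06).

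SERPINH1, the collagen chaperone HSP47, was lower in Tibetan pigs (-0.51, adjusted p = 5.0e-05, limma), and P4HA1, a prolyl hydroxylase of collagen chains, passed for the interaction at 1 of 4 probes and for nothing else. VTN, the αv ligand vitronectin, was higher in Tibetan pigs and at high altitude at both of its probes (0.83 and 1.04 at the brightest, adjusted p = 4.0e-05 and 2.0e-05). Of 6 probes of adhesion adaptors, 3 were called lower at high altitude and none higher. Of all tested probes 12.2% were lower, and of those named by RefSeq 9.85%. The 3 were for VCL, the actin linker vinculin (-0.63, adjusted p = 1.5e-05 at the brightest, limma), FERMT2, the integrin activator kindlin-2 (-0.56, adjusted p = 2.5e-05), and CD47, an integrin-associated membrane protein (-0.67, adjusted p = 3.1e-05).

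Of 10 markers of fibroblasts, the main makers of fibrillar collagen, 4 had a named probe. Their summed signal in log2 was 17.02 to 17.03 in TH, 17.70 to 17.72 in TL, 16.66 to 16.73 in DH and 17.38 to 17.43 in DL, highest in TL. The 7 fibroblast probes not named by effect tables did not move together. For breed 3 were called higher and 1 lower, against 12.8% and 14.6% of all tested probes and 9.28% and 19.3% of those named by RefSeq. For altitude 1 was called higher and 5 lower, against 14.0% and 12.2% of all tested probes and 26.2% and 9.85% of those named by RefSeq. Of the 10 collagen probes not named by effect tables, 1 (COL11A1) was highest in TL and 4 (COL1A1, COL5A1, COL5A2 and COL10A1) were lowest there. Endothelial markers, 9 of 11 genes, summed to 17.97 to 18.06 in Tibetan and 18.43 to 18.53 in Duroc pigs. Of 14 endothelial probes not named by effect tables, 7 were called lower and none higher in Tibetan pigs. Of all tested probes 14.6% were lower and 12.8% higher, and of those named by RefSeq 19.3% and 9.28%. The part of these cell types in the collagen values was not tested.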

How the data were processed

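RNA of 8 lungs was hybridized to Agilent 1-color porcine arrays. The authors extracted spot signals with Agilent Feature Extraction, version 10.7.3.1 per the file headers and 9.1 per the submitters' processing notes. The deposited scanner files hold the spot intensity (raw median signal, background and processed signal) and a flag for spots well above background. The deposited table of log2 values, which the methods call RMA, was used for all main values; it shares 1 distribution with a median of 7.40 over arrays and ranks probes as the processed signals do (Spearman's rho at least 0.9999955), but its exact steps stay unknown. No spot was saturated (0 flagged). The number of arrays limits the precision.

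Control probes were left out. The two-way model was fitted to 34406 of 43603 probes with limma 3.58.1 in R 4.3.3 (lmFit, contrasts, eBayes; Benjamini-Hochberg over all of them), with calls at FDR below 0.0001 as in the study's methods. SE are limma's moderated ones. The step was tested on simulated data. The methods give 1 pig per array, whereas the labels give only replicate numbers; where samples were not separate animals, p-values measure only technical spread. Alternatives were other scalings, filters, variance models and thresholds, a replicate block, a slide block, and leaving out each array. Python 3.11.15 and matplotlib 3.10.9 drew the figures.

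Symbols came from RefSeq accessions of the array design, matched in a RefSeq table of Sscrofa11.1, and from the paper's tables, held in part. No coordinates are given, since the array files name no build. Genes named were those with the 5 largest called coefficients per direction and effect, genes with opposing probes, and a set of main chains; other members follow by family. The members and lists were chosen with earlier results of these data known. Correlations between probes of a gene are Pearson's r. Marker sums add the linear signals of the brightest probe of each gene.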

Additional observations from a re-analysis of the deposited data

Results flagged for a closer look

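The altitude difference differed between breeds by the interaction test in 9 member probes not named by effect tables. Their interactions, TH less TL minus DH less DL in log2 units, were 1.55 for COL1A1, 1.29 for COL1A2 (A_72_P107881), 1.17 for COL3A1 (A_72_P424249), 1.34 for COL5A1, 0.92 for COL5A2, 0.83 for ITGA2B and 1.54 for ITGB3, and -2.68 for FN1 (A_72_P279769) and -0.91 for ITGB1 (A_72_P195557). The interaction coincides with the slide and with the move, and the 3 cannot be told apart.

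In another 11 probes, named by effect tables, all Tibetan arrays moved one way with altitude and all Duroc arrays the other. Their interactions were 2.00 and 1.59 for COL1A2 (A_72_P095131 and A_72_P149956), 1.39 for COL3A1 (A_72_P248462), 0.72 for COL4A1, 1.09 and -5.23 for COL4A2 (A_72_P203157 and A_72_P373753), 0.61 for COL6A1, 0.79 for COL6A3, 1.26 for ITGAE, 0.71 for ITGB4 and -2.62 for LAMB1. These differences were not tested, because the naming of the probes used them.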

How the results depend on the processing

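Calls over all 34406 tested probes in the order breed, altitude, interaction, TH less DL and TL less DH were 9424, 9041, 9786, 4863 and 11665. Member counts in the same order were 23, 16, 23, 10 and 22, of which 14, 9, 14, 6 and 14 came from probes named by effect tables. Those calls support nothing for breed, interaction and within slides. Counts below are of members unless stated otherwise. Leaving out 1 array at a time gave 9 to 13, 1 to 6, 6 to 11, 0 and 8 to 18, and 1 to 2 genes with opposing probes instead of 2 (COL4A2 alone without either TL array). For TH less DL, 32 to 35 members still had an unadjusted p under 0.05 in limma. The labels give replicate numbers but no litter or day. Deviations from group means correlated between groups at -0.04 to 0.09 over probes. That cannot settle whether arrays with the same number shared a litter or day. With the replicate block the counts were 12, 7, 9 and 0 (35 at an unadjusted p under 0.05) for the first 4, and 15 for TL less DH. Over all tested probes the block gave 3697, 2888, 4094, 247 and 5980. Leaving out 1 array also lowered the counts over all tested probes for each effect. Without variance moderation altitude gave 10 and TH less DL 4, beside 5265 and 2063 of all tested probes. Raw signals with normexp and quantile normalization gave 12 for the interaction and 4 for TH less DL, beside 7263 and 2242 of 34270 probes. TH less DL gave 19 with probes above background on all 8 arrays and 22 with an intensity trend. Over all probes these settings gave 8283 of 24775 and 9375 of 34406. FDR below 0.05 gave 34 for altitude, 35 for the interaction, 33 for TH less DL, 38 for TL less DH and 5 genes with opposing probes. Of all tested probes, 70.8%, 73.7%, 61.5% and 74.0% passed for these effects at that threshold. Members named by RefSeq alone gave 5, 5, 5, 4 and 6, and with the score table, a choice made after seeing the data, 9, 7, 9, 4 and 8. Of 62 called coefficients of named members, none reversed under any of these alternatives. These 62 include 14 for breed and 14 for the interaction at probes named by effect tables, which carry no test. With the 75th percentile scaling 52 kept their call, with normexp 41, with the replicate block 28, and without 1 array 17 to 27. The median interaction over all probes was 0.21, and 0.34 with the 75th percentile scaling, so that calls above 0 are partly relative to that shift.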
